A study of Mus musculus with 2 samples.

Results

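The 9 genes described here carry out the use of ketone bodies and the first steps of branched-chain amino acid breakdown: Oxct1, Bdh1, Acat1, Bcat2, Bckdha, Bckdhb, Dbt, Bckdk and Ppm1k. They were chosen by exact match of the gene symbol, and 9 of 9 were found among 55536 annotated genes. The RNA came from heart tissue of male B6CASTF1/J mice, the first-generation cross of C57BL/6J and CAST/EiJ, between 18 and 20 months old. Total RNA was sequenced in 2 libraries, named biological replicates 2 and 1, each made from 300 ng of RNA with ribosomal RNA reduced and ERCC spike-ins (synthetic RNAs) added. Both libraries belong to 1 group, with no treatment or mutation labelled, so the comparison available was replicate 2 against replicate 1. They have separate sample identifiers but 1 donor identifier, so every p-value measures only the difference between these libraries, which may be technical in part.

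Ketone bodies are made by the liver and burned by other tissues, the heart among them. In mitochondria Bdh1 oxidises 3-hydroxybutyrate to acetoacetate, Oxct1 activates acetoacetate with coenzyme A taken from succinyl-CoA, and Acat1 splits the product into acetyl-CoA. Leucine, isoleucine and valine are first transaminated, in heart muscle mainly by mitochondrial Bcat2, and the resulting oxoacids are then decarboxylated by the branched-chain 2-oxoacid dehydrogenase complex. Its decarboxylase consists of the alpha subunit Bckdha and the beta subunit Bckdhb, its acyltransferase core is Dbt, and its dehydrogenase, Dld, is shared with the pyruvate and 2-oxoglutarate dehydrogenases. The kinase Bckdk phosphorylates Bckdha and turns the complex off, and the phosphatase Ppm1k turns it on again.

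Promoter windows in the RefSeq tables (build GRCm38.p6, 250 bases before to 50 bases after a start site that RefSeq annotates) matched 7 of the 9 members, with 10 windows in all; the others are Acat1 and Dbt. Some genes have more than 1 window, and a window need not lie at the gene start given below: the second of Bdh1 begins at 31428503 and the second of Bckdhb at 83948531, both inside the gene. Shown are those of Oxct1, the most abundant member, of the kinase and phosphatase that oppose each other, and of the Bckdhb window with the most motif matches. Capitals mark the letters AGGTCA (a nuclear receptor half-site), GGGCGG (GC box) and CCAAT on either strand; no match overlaps another, and each window is written on the strand of its gene.
Oxct1, chr15:4026178-4026477, plus strand: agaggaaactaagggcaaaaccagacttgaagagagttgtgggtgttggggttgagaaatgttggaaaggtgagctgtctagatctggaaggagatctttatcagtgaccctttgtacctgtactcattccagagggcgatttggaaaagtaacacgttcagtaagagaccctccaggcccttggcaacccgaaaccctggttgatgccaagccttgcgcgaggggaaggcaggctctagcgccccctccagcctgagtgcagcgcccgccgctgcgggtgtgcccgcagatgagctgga
Bckdk, chr7:127903823-127904122, plus strand: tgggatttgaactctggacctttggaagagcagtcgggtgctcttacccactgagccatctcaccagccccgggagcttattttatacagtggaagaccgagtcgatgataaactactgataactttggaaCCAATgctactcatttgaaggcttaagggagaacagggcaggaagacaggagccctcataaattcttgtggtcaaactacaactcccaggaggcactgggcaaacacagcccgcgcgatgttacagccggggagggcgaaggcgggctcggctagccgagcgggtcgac
Ppm1k, chr6:57535438-57535737, minus strand: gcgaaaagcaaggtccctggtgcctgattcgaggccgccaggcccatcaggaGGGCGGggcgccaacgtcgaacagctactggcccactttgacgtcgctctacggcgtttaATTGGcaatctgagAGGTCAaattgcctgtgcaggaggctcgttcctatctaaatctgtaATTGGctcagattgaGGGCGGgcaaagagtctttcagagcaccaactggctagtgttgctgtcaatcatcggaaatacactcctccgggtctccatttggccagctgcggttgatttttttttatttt
Bckdhb, chr9:83924887-83925186, plus strand: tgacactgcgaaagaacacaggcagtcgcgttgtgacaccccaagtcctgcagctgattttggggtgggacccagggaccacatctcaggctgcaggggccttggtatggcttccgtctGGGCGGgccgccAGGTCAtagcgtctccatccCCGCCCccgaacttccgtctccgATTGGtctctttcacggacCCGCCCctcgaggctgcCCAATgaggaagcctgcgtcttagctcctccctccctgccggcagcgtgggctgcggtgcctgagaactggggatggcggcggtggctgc
AGGTCA was present in 2 of the 10 windows, those of Ppm1k and Bckdhb, against 16.3% of 32851 promoter windows in the same tables. GGGCGG was present in 3 of 10, against 35.7% of all windows, and CCAAT in 4 of 10, against 37.4%. The window of Bckdhb had a GC content of 65%, that of Oxct1 55.3%, that of Bckdk 54% and that of Ppm1k 52.7%, beside a median of 52.7% over all windows. A match describes the letters and is not a measurement of binding.

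The gene table summed to 37447840 expected counts for replicate 2 and 39053830 for replicate 1. Mitochondrial transcripts took 34.4% of the counts of annotated genes in replicate 2 and 29.3% in replicate 1. The heart label was checked against its markers: 7 of 7 cardiac muscle markers were detected, meaning at 1 TPM or more in both libraries (TPM is transcripts scaled for length and depth to a fixed library total), and they summed to 29534 TPM in replicate 2 and 35214 in replicate 1. Marker sums were lower in replicate 2 for white adipocytes (12.4 TPM, against 57.4 in replicate 1), atrial muscle (814 against 1371), erythroid cells (7045 against 10875) and macrophages (72.2 against 99.3). Endothelial marker sums were 128 TPM in replicate 2 and 129.7 in replicate 1. Fibroblast marker sums were 175 TPM in replicate 2 and 195 in replicate 1. The median log2 TPM ratio of replicate 2 over replicate 1 was -0.15 over the genes tested, so equal sums stand above the median gene. By the count test described below, 10.7% of all genes tested were called higher in replicate 2 and 15.9% lower. Of 4 fibroblast markers, 2 were called higher and 2 lower. Among 4 macrophage markers, 0 were called higher, 3 lower and 1 not called. The 4 endothelial markers had 2 called higher, 1 lower and 1 not called. Of 7 cardiac muscle markers, 2 were called higher and 5 lower. The 5 atrial muscle markers, the 5 erythroid markers and the 6 white adipocyte markers tested were all called lower. In bulk tissue, fewer cells of a type and less RNA per cell cannot be told apart, and the part of these differences in the member ratios was not tested.

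All 9 members were well expressed and together held 1137 TPM in replicate 2 and 1080.4 TPM in replicate 1. That sum was 0.318% of the TPM of nuclear protein-coding genes in replicate 2 and 0.261% in replicate 1. Oxct1 alone made up 44.9% of it in replicate 2 and 45.96% in replicate 1. The order by mean level was Oxct1, Acat1, Bckdha, Bcat2, Bdh1, Bckdk, Bckdhb, Ppm1k and Dbt. Bcat2 and Bdh1 were neighbours that differed by less than the SD of Bcat2 over the libraries. Bckdhb and Ppm1k likewise differed by less than the SD of Ppm1k.

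**Figure D1:**
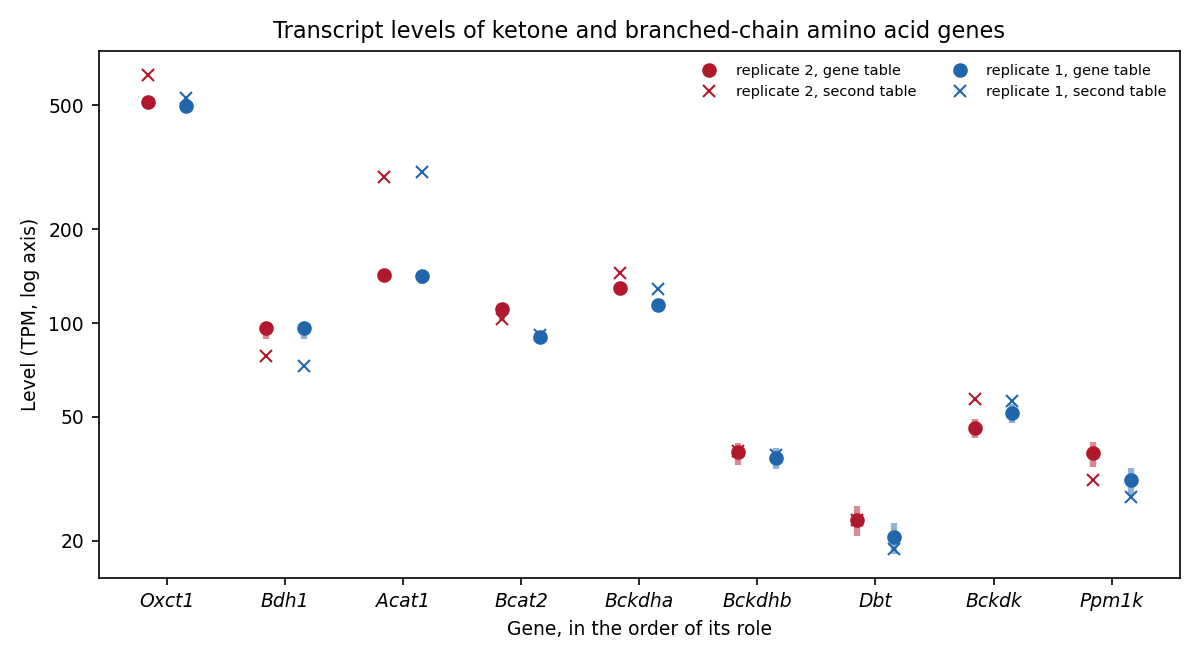
Level of each member in TPM (log axis), replicate 2 in red and replicate 1 in blue; circles are the gene table with the authors' interval as a bar, crosses the second table. Oxct1 stands highest near 500 TPM and Dbt lowest, at 23.4 TPM in replicate 2 and 20.6 TPM in replicate 1, and the tables differ most for Acat1.

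Among the ketone genes, Oxct1 (ENSMUSG00000022186.14, chromosome 15 from 4026383 to 4155344, mm10) stood at 510.2 TPM in replicate 2 and 497 TPM in replicate 1. It ranked 102 of 22015 nuclear protein-coding genes by mean level, the highest of the 9. The authors' own interval for the TPM, which covers the estimation from reads and whose level is not given in the sources used here, ran from 485 to 514 in replicate 2 and from 472 to 501 in replicate 1, so the intervals overlapped. Acat1 (ENSMUSG00000032047.5, chromosome 9 from 53580522 to 53610382) stood at 143 TPM in replicate 2 and 142 TPM in replicate 1, with rank 398. Bdh1 (ENSMUSG00000046598.15, chromosome 16 from 31422280 to 31458901) stood at 96.2 TPM in replicate 2 and 96.7 TPM in replicate 1, with rank 572. The libraries were nearly level for these genes in TPM, and the authors' intervals overlapped for both.

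In the branched-chain pathway, Bcat2 (ENSMUSG00000030826.19, chromosome 7 from 45570153 to 45589711) stood at 111 TPM in replicate 2 and 90.5 TPM in replicate 1. The authors' intervals, 102 to 115 in replicate 2 and 86.2 to 94.4 in replicate 1, did not overlap. Bckdha (ENSMUSG00000060376.7, chromosome 7 from 25629946 to 25658981) stood at 130.1 TPM in replicate 2 and 115 TPM in replicate 1, again with intervals apart, 123 to 132 and 108 to 116. Both genes were therefore higher in replicate 2 by more than the estimation error the authors give. Bckdhb (ENSMUSG00000032263.14, chromosome 9 from 83925145 to 84124240) was at 38.6 TPM in replicate 2 and 36.97 TPM in replicate 1. Dbt (ENSMUSG00000000340.10, chromosome 3 from 116513070 to 116549981) was at 23.4 TPM in replicate 2 and 20.6 TPM in replicate 1. These genes, the beta subunit and the acyltransferase core, had overlapping intervals. They ranked 1475 and 2594 of 22015 nuclear protein-coding genes, in the top 6.7% and 11.8%.

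Of the regulators of the complex, Bckdk stood above Ppm1k in the gene table, by 1.20 times in replicate 2 and 1.65 times in replicate 1. In that table their TPM ratios between the libraries had opposite signs. Bckdk (ENSMUSG00000030802.14, chromosome 7 from 127904082 to 127910221), the kinase, was at 46.1 TPM in replicate 2 and 51.6 TPM in replicate 1, with authors' intervals of 42.6 to 49.1 and 47.6 to 54.8. Ppm1k (ENSMUSG00000037826.5, chromosome 6 from 57506502 to 57535468), the phosphatase, was at 38.4 TPM in replicate 2 and 31.3 TPM in replicate 1. The intervals of Ppm1k, 34.5 to 41.5 in replicate 2 and 28.1 to 34.3 in replicate 1, did not overlap, whereas those of Bckdk did. In the second table both were higher in replicate 2, Bckdk at 57.1 TPM in replicate 2 and 56.3 TPM in replicate 1, and Ppm1k at 31.4 TPM in replicate 2 and 27.7 TPM in replicate 1. In all, 3 of 9 members had authors' intervals apart, each higher in replicate 2, where 1.81% of the 12189 genes tested, those averaging 1 TPM or more, were apart in that direction and 20.4% in the other. The median log2 TPM ratio of those 12189 genes was -0.15, so a gene at equal TPM in both libraries stood above the median gene.

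Members that use ketone bodies or branched-chain amino acids far exceeded their paralogues in level. Bcat2 made up 99.8% of its sum with cytosolic Bcat1 in replicate 2 and 99.5% in replicate 1. Acat1 held 98.6% and 98.3% against cytosolic Acat2 in replicates 2 and 1, and Bdh1 held 98.98% and 98.7% against Bdh2. Oxct2a, the testis form of Oxct1 in mice, had 0 counts in both libraries, which allows up to 3 counts in each. The liver marker Alb also had 0 counts in both libraries.

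Within the complex the subunits differed several-fold in level per length. Bckdha was 3.37 times Bckdhb in replicate 2 and 3.101 times in replicate 1, although both form the decarboxylase. Bckdhb was 1.65 times Dbt in replicate 2 and 1.799 times in replicate 1. Dld, the shared dehydrogenase, was at 158 TPM in replicate 2 and 179 TPM in replicate 1, so Dld exceeded Dbt by 6.76 times in replicate 2 and 8.73 times in replicate 1. The order Dld, Bckdha, Bckdhb, Dbt was the same in both libraries. The second table gave Bckdha a share of 78.9% of its sum with Bckdhb in replicate 2 and 77.3% in replicate 1, close to 77.1% and 75.6% in the gene table.

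Subunits of the sister complexes stood at higher levels. For the decarboxylase alpha subunit, Bckdha stood below Pdha1 of pyruvate dehydrogenase, at 393.6 TPM in replicate 2 and 493 TPM in replicate 1. Ogdh, the decarboxylase of the 2-oxoglutarate complex, was at 692 TPM in replicate 2 and 740 TPM in replicate 1. For the acyltransferase core, Dbt stood far below Dlst, at 270 TPM in replicate 2 and 306 TPM in replicate 1, and below Dlat, the pyruvate dehydrogenase core, chosen after its values were seen, at 144 TPM in replicate 2 and 159 TPM in replicate 1. Dlat, Dlst and Pdha1 were each lower in replicate 2 by TPM, while Dbt and Bckdha were higher. The median log2 TPM ratio over the genes tested was -0.15. By the scaled counts described below, the log2 ratios of Dlat, Dlst and Pdha1 were -0.11, -0.12 and -0.17. Those of Dbt and Bckdha were 0.30 and 0.29. Other subunits did not split as clearly. Ogdh was at -0.02, near the median of -0.02 over the genes tested, though called lower. Bckdhb was at 0.12 and was not called. Dld, which the complexes share, was at -0.06 and was called lower.

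**Figure D2:**
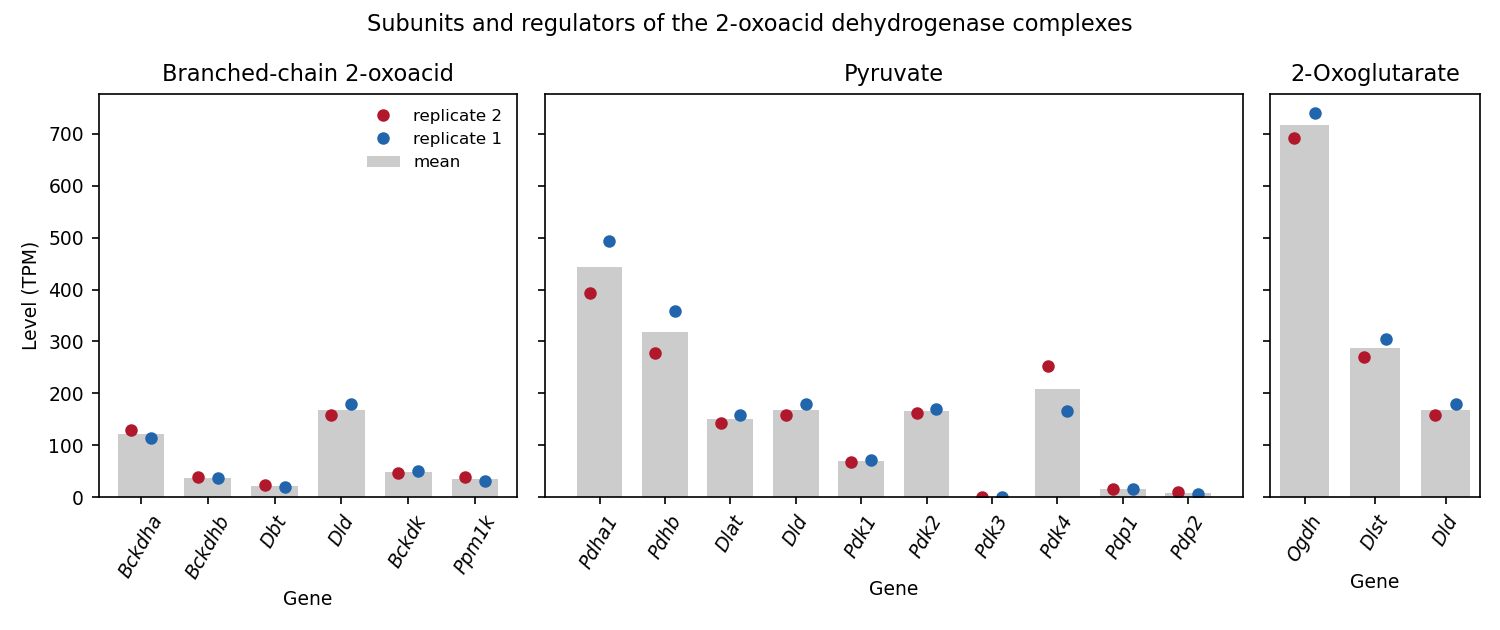
Levels in TPM of subunits, kinases and phosphatases of the 3 mitochondrial 2-oxoacid dehydrogenase complexes, with grey bars for the mean of 2 libraries, red points for replicate 2 and blue points for replicate 1. Dbt at 21.96 TPM on average is the lowest catalytic subunit shown, and Dld is drawn in each panel because the complexes share it.

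Ratios between the libraries were taken from expected counts with TMM-scaled library sizes (a scaling to the bulk of genes), as the log2 of replicate 2 over replicate 1. All 9 members had a ratio above 0, with a median of 0.27 and a range from 0.05 to 0.36. Over 12189 genes tested, 45.5% had a ratio above 0 and the median was -0.02. By the exact conditional binomial test, two-sided, with Benjamini-Hochberg adjustment over all 12189 genes, 7 of the 9 members were called higher in replicate 2 and 0 lower. Over all genes tested 10.7% were called higher and 15.9% lower. The test covers counting error only and gains power with depth. In the 3977 genes averaging 1000 expected counts or more, a set added after the data were seen that holds every member, 17.3% were called higher and 27.9% lower. In that set 43.1% had a ratio above 0. No member reached 1.5-fold in either direction, beside 2.17% of all genes tested on the higher and 2.88% on the lower side, and 0.603% and 1.16% of the genes with 1000 counts or more. At 2-fold, which no member reached, these shares were 0.533% and 1.13% of all genes tested, and 0.0754% and 0.327% of the genes with 1000 counts or more.

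**Figure D3:**
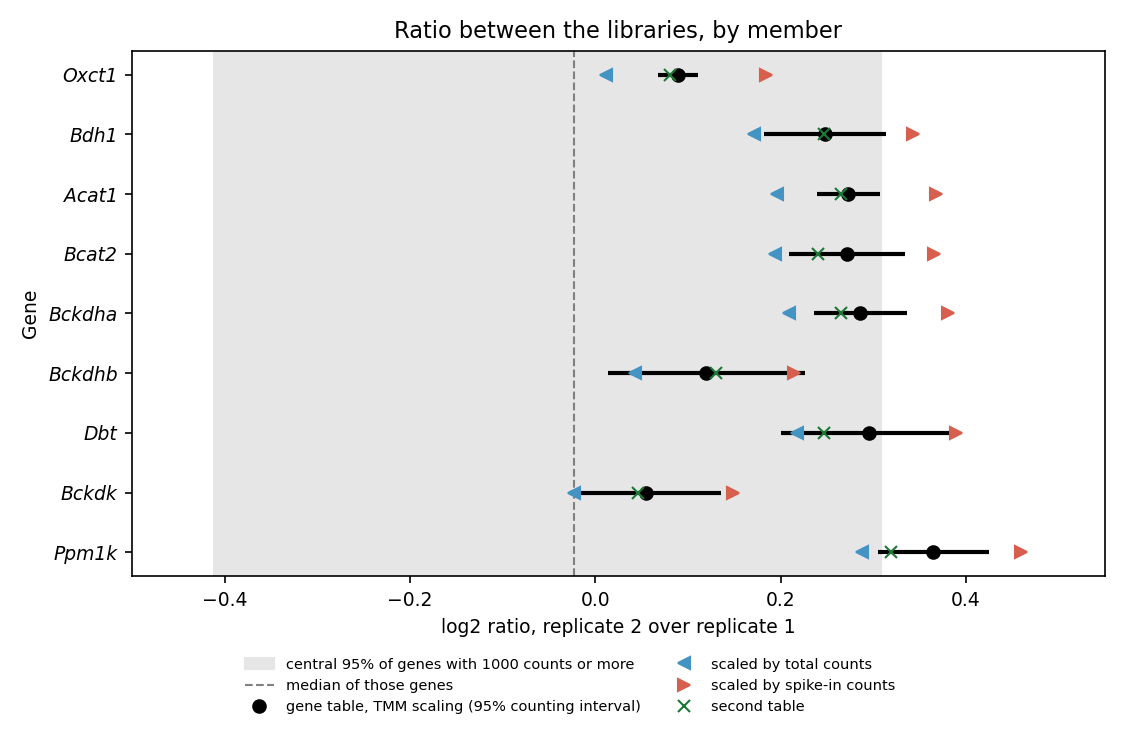
Log2 ratio of replicate 2 over replicate 1 for each member with its 95% counting interval (black), and the ratio under other scalings and in the second table. The grey band is the central 95% of 3977 genes with at least 1000 counts, from -0.41 to 0.31, and Ppm1k alone has its main value, 0.36, outside it.

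Ppm1k had the largest ratio, with 4966 counts in replicate 2 and 4240 in replicate 1. Its log2 ratio was 0.36 (95% interval 0.31 to 0.42, adjusted p = 4.55e-32, exact binomial test), or 1.29-fold. That placed it above 98.2% of the genes with at least 1000 counts. Dbt, with 1891 counts in replicate 2 and 1694 in replicate 1, had a ratio of 0.30 (0.20 to 0.39). Bckdha, with 6841 counts in replicate 2 and 6169 in replicate 1, had 0.29 (0.24 to 0.34). Both were called higher and stood above 97.2% and 96.9% of those genes.

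Acat1, Bcat2 and Bdh1 were called higher by similar amounts. Acat1 had 14495 counts in replicate 2 and 13191 in replicate 1, for a log2 ratio of 0.27 (0.24 to 0.31). Bcat2 had 4327 counts in replicate 2 and 3942 in replicate 1, for 0.27 (0.21 to 0.33). Bdh1 had 3855 counts in replicate 2 and 3569 in replicate 1, for 0.25 (0.18 to 0.31). The intervals of these 3 genes overlap one another and those of Dbt and Bckdha. For Acat1 and Bdh1 the log2 ratio of TPM was only 0.02 and -0.01. TPM was set over all RNA, mitochondrial RNA included, and the mean transcript length assigned to Acat1 was 3405 bases in replicate 2 and 3120 in replicate 1, and that of Bdh1 1406 bases in replicate 2 and 1295 in replicate 1.

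Oxct1, Bckdhb and Bckdk stood closer to the median of all genes. Oxct1 had 32770 counts in replicate 2 and 33874 in replicate 1, a log2 ratio of 0.09 (0.07 to 0.11, adjusted p = 3.56e-14, exact binomial test), or 1.06-fold. With total-count scaling its ratio was 0.01 and was no longer called. Bckdhb had 1422 counts in replicate 2 and 1439 in replicate 1, with a log2 ratio of 0.12 (0.01 to 0.23, adjusted p = 0.0882, exact binomial test), and did not pass. Bckdk had 2390 counts in replicate 2 and 2531 in replicate 1, with a log2 ratio of 0.05 (-0.03 to 0.14, adjusted p = 0.369, exact binomial test), and did not pass either. With total-count scaling the value of Bckdk was -0.02, so its direction was not settled.

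The kinase and the phosphatase thus differed in their share between the libraries. Bckdk made up 54.5% of the summed TPM of Bckdk and Ppm1k in replicate 2 and 62.2% in replicate 1. By counts, which favour the longer Ppm1k, the share of Bckdk was 32.5% in replicate 2 (95% exact Clopper-Pearson interval 31.4 to 33.6) and 37.4% in replicate 1 (36.2 to 38.5), so the counting intervals did not overlap. In the second table the share was 64.5% in replicate 2 and 67.01% in replicate 1, a smaller gap of the same direction. The ratio of Bckdha, the substrate of both enzymes, to Bckdk was 2.82 by TPM in replicate 2 and 2.22 in replicate 1.

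The later steps of branched-chain breakdown had calls in both directions. Of 23 genes tested in that list, 9 were called higher in replicate 2, 4 lower and 10 not called, with a median log2 ratio of 0.02. Its most abundant genes, Hadhb and Hadha of the trifunctional enzyme and Acaa2 and Echs1 of beta oxidation, had ratios between -0.08 and 0.10. Ivd, the leucine-branch isovaleryl-CoA dehydrogenase, stood at 179 TPM in replicate 2 and 191 TPM in replicate 1. Its expected counts were 13914 in replicate 2 and 11990 in replicate 1, with a log2 count ratio of 0.35. The direction for Ivd thus differed between TPM and counts. Abat, a transaminase of the GABA pathway, stood at 9.2 TPM in replicate 2 and 3.96 TPM in replicate 1. Its log2 count ratio was 1.35. Both genes were chosen after their values were seen.

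Neighbouring fuel pathways had medians at or below 0.03. The citric acid cycle list had 2 genes called higher and 11 lower of 15, with a median log2 ratio of -0.10. The pyruvate dehydrogenase list had 3 higher and 6 lower of 14, with a median of -0.06, and the fatty acid oxidation list 8 higher and 5 lower of 20, with a median of 0.03. The members' median of 0.27 was the highest among the 10 metabolic lists, and no test was made of the difference between lists. Of the ketone synthesis list, 0 genes were called higher and 3 lower of 6 tested, with a median of -0.19. Of monocarboxylate transport, 1 gene was called higher and 2 lower of 5 tested; of amino acid uptake, 1 was called higher and 0 lower of 5 tested. Bsg, the chaperone of the monocarboxylate carriers, was at 508 TPM in replicate 2 and 588 TPM in replicate 1, and Slc16a1, the carrier that brings ketone bodies into cells, at 59.5 TPM in replicate 2 and 64.1 TPM in replicate 1. Slc25a44, the mitochondrial carrier of branched-chain amino acids, was at 4.67 TPM in replicate 2 and 4.96 TPM in replicate 1. By scaled counts the log2 ratio of Bsg was -0.08, and it was called lower. Those of Slc16a1 and Slc25a44 were 0.02 and 0.04, and neither was called.

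**Figure D4:**
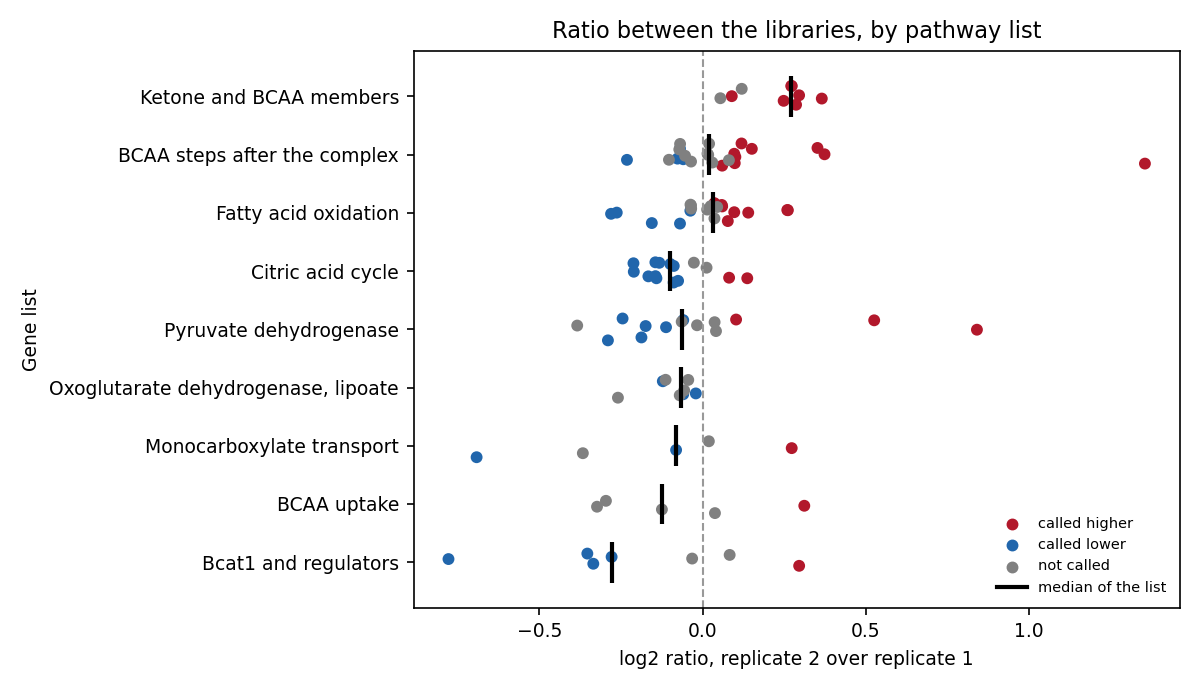
Log2 ratio of replicate 2 over replicate 1 for each tested gene of 9 metabolic lists; red points were called higher, blue points lower and grey points neither, and black bars are list medians. The ketone and branched-chain members lie to the right of 0 with a median of 0.27, while the citric acid cycle genes have a median of -0.10.

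Of 7 regulators and neighbours of these pathways tested, 4 were called lower in replicate 2 and 1, Mlxipl, higher. Esrra, a nuclear receptor of mitochondrial genes, was at 54.7 TPM in replicate 2 and 71.7 TPM in replicate 1, with a log2 count ratio of -0.28. Ppargc1a, its coactivator, had a ratio of -0.33, and Ppara, the fatty acid receptor, -0.35; all 3 were called lower. Klf15, a transcription factor known in the mouse heart to raise branched-chain amino acid genes, chosen after its values were seen, was at 15.3 TPM in replicate 2 and 28.6 TPM in replicate 1, with a ratio of -0.78. Mlxipl, a glucose-responsive transcription factor also chosen after its values were seen, had a ratio of 0.30.

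The annotation held 45 transcripts for the 9 members, and the same transcript led in both transcript tables for 7 of them. In the first table, Bckdha-201 made up 93.9% ± 1.72 of the TPM of Bckdha, and in the second 100% (SD, n = 2). The share of Dbt-201 was 80.7% ± 0.951 by the first table and 94.1% ± 8.30 by the second, and that of Ppm1k-201 was 77.8% ± 2.02 and 98.3% ± 1.51. Bckdk-202 held 55.4% ± 5.05 and 54.8% ± 5.58 in the first and second tables, but the next transcript differed, Bckdk-203 with a retained intron in the first and the coding Bckdk-204 in the second. For Bcat2-201 the first table gave 44.5% ± 4.30 and the second 90.95% ± 0.281. For Bckdhb-201 the second table gave 56.6% ± 25.4, and Bckdhb-206 took 31.5% ± 21.5; 100% of the 31-base stretches of Bckdhb-201 also occur in Bckdhb-206.

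Oxct1, Bdh1 and Acat1 were the members in which short transcripts without a coding annotation took the largest shares in either table. Oxct1-201, the coding transcript of 3527 bases, took 56.8% ± 2.99 of Oxct1 by the first table and 56.9% ± 8.74 by the second. The rest went mostly to Oxct1-202 and Oxct1-203, of 480 and 699 bases, in the first table, and to Oxct1-203 and Oxct1-204 in the second. Of the 31-base stretches of Oxct1-202 and Oxct1-203, 90.4% and 91.9% also occur in Oxct1-201. Counting coding transcripts only, Oxct1 stood at 280 TPM in replicate 2 and 294 TPM in replicate 1. Oxct1 was still the highest of the 9 members by that measure.

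For Acat1 the tables disagreed on the leading transcript. Acat1-203, a non-coding transcript of 500 bases, held 55.8% ± 5.57 of the gene in the second table and 4.91% ± 6.95 in the first, where Acat1-201 of 3405 bases led with 95.1% ± 6.95. The Acat1 level in the second table was accordingly 2.1 times that in the gene table, at 294 TPM in replicate 2 and 305 TPM in replicate 1. Coding Acat1 alone was at 141 TPM in replicate 2 and 123 TPM in replicate 1 in the second table, and at 143 TPM and 128 TPM in the first. The level of the coding transcript was thus close between the tables. For Bdh1 the first table was led by Bdh1-205, a retained-intron transcript of 438 bases, at 33.1% ± 3.03, and the second by the coding Bdh1-202 at 46.1% ± 2.89, where Bdh1-205 held 0.454%. Coding Bdh1 stood at 60.6 TPM in replicate 2 and 56.1 TPM in replicate 1 in the first table.

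**Figure D5:**
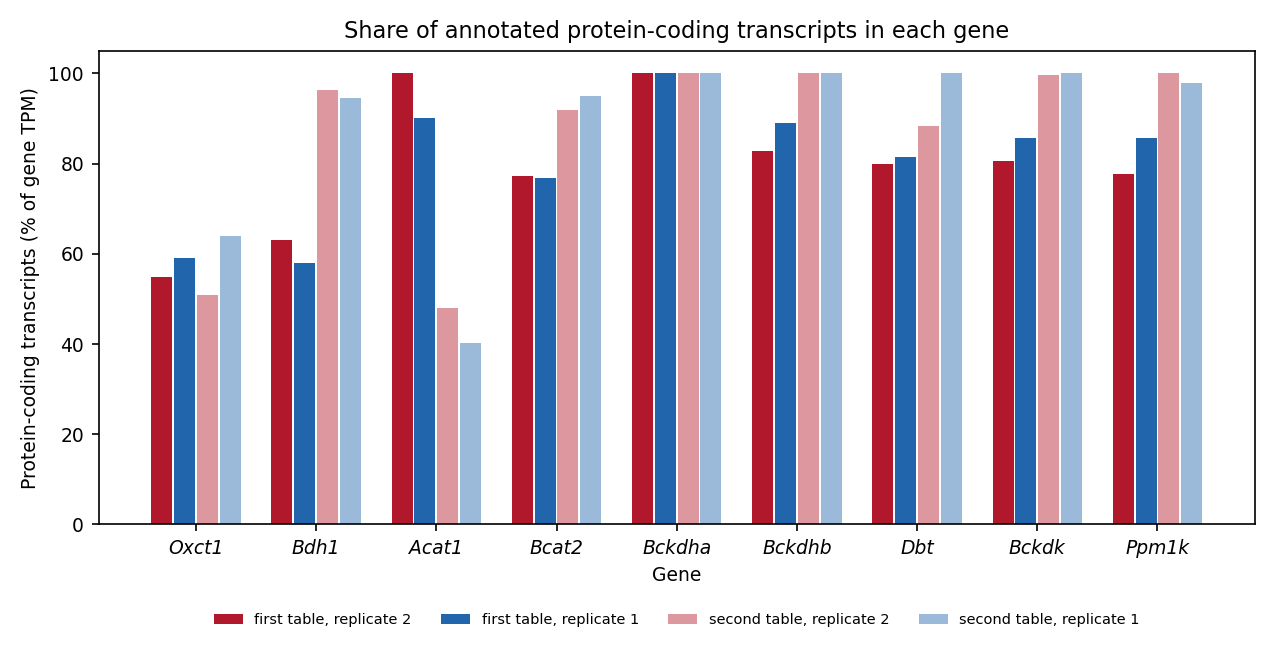
Share of each gene's TPM in transcripts annotated as protein-coding, in percent, for replicate 2 (red) and replicate 1 (blue), with full colour for the first transcript table and pale colour for the second. Bckdha is at 100% throughout, and Acat1 and Bdh1 differ most between the tables, in opposite directions.

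Genes overlapping a member lay on the opposite strand, except Gm43651 within Dbt, which had 0 TPM in both libraries. The most abundant of them was BC037032, which overlaps Oxct1 at its 5′ end, at 3.7 TPM in replicate 2 and 4.72 TPM in replicate 1. The spike-in label speaks of stranded libraries, and whether strand was used in the counting is not given in the sources used here. The authors' posterior SD of the gene count was 0 for each member in both libraries.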

How the data were processed

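Total RNA of 2 heart libraries in 1 group was analysed. Per the deposited file lists, transcriptome alignments gave the gene table and a first transcript table, and the reads gave a second transcript table, on mm10 with GENCODE M21; tools are not given in the sources used here. The tables hold expected or estimated counts and TPM as deposited, and interval bounds for the TPM, a signal scale, as deposited. The deposited percent of each transcript was not used, and shares were computed from TPM. The authors' posterior SD of counts was read as a score, as deposited.

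Spike-ins and 26248 numbered entries (1 and 1.94 expected counts in replicates 2 and 1) were left out. Expected counts were rounded. Scaling used TMM in edgeR 4.0.16 (R 4.3.3), with a prior count of 2 for log2 ratios. Genes averaging 1 TPM or more entered an exact two-sided conditional binomial test (SciPy 1.17.1) with Benjamini-Hochberg adjustment at 0.05. A dispersion-based p-value needs replicates on each side. The common biological coefficient of variation between the libraries was 11.04% over 14734 genes by edgeR. Intervals are 95% Clopper-Pearson and cover counting error only. Detection means at least 1 TPM in both libraries. The test was also run on simulated counts that held counting error only. That check cannot cover the further variation between these libraries.

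All 9 members are named; of other metabolic lists the 4 most abundant genes, genes under 1 TPM and the genes of 13 pairs may be named, and any gene picked for its value is marked as such. The members and lists were chosen with earlier results of these data known. Some genes of the lists are not reported here.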

Additional observations from a re-analysis of the deposited data

How the results depend on the processing

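The count of members called higher stayed within 1.5 times of 7, from 6 to 9, under each scaling, filter and table tried, no member was called lower, and all 9 stood above the median of all genes in each of these count-based settings. By the ratio of deposited TPM, Bckdk at -0.16 lay just below the median of all genes, -0.15. Relative to TMM, total counts shifted every log2 ratio by -0.08, spike-ins by 0.09 and the sum of 7 cardiac muscle markers, an alternative added after the data were seen, by 0.15. With total counts 700 genes were called higher and 3473 lower, with spike-ins 2884 and 990, with the cardiac markers 4436 and 702, against 1302 and 1943 with TMM; scaled by nuclear protein-coding counts 2014 were higher. Bckdk reversed to -0.023 with total counts and to -0.16 in TPM, and Bdh1 to -0.0069 in TPM. Oxct1 was not called with total counts, and Bckdhb and Bckdk were called with spike-ins, nuclear protein-coding counts and cardiac markers. The summed level of the members was 1331 TPM in the second table against 1109 TPM in the gene table, and lay between 1080.4 and 1137 TPM when either replicate was left out. The mean Bckdk share of its sum with Ppm1k, 58.4%, was 65.8% in the second table and turned to 34.9% with counts in place of TPM, where length is not removed; without 1 replicate it was 54.5% to 62.2%. The Bckdhb share of its sum with Dbt likewise turned to 44.4% with counts. Detection at 5 TPM left 1 gene of the ketone synthesis list, 2 of monocarboxylate transport and 2 of amino acid uptake. No paired analysis was possible because both libraries belong to 1 group.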
